A study of Drosophila pseudoobscura with 4 samples.

Results

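The microRNA dps-mir-133 was followed in the small RNA libraries of adult *Drosophila pseudoobscura*. It was found by its name, as 1 row of the 231 microRNAs in the count tables. The other muscle microRNA of interest, dps-mir-1, had no row of that name in the tables used here, so the pair could not be compared with each other. MicroRNAs are short RNAs cut from hairpin precursors, and they guide silencing proteins to messenger RNAs through a seed near the 5′ end. In vertebrates and in insects, mir-133 and mir-1 are ancient microRNAs known for their expression in muscle, where vertebrate mir-133 acts on muscle growth and differentiation and mir-1 is abundant in muscle cells. The muscle source of dps-mir-133 was not measured in these samples, which came from adult flies and not from dissected tissue.

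The dps-mir-133 precursor spans 96 bases on chromosome 4, from 25563773 to 25563868, in the assembly UCI_Dpse_MV25. It overlaps 0 genes of the RefSeq gene table, which lists gene spans without exons. The nearest gene on the side of lower coordinates is the protein-coding LOC6903097, from 25561888 to 25563327, which ends 445 bases before it. On the other side, the nearest is the long noncoding RNA LOC26532598, from 25626909 to 25627491, after a gap of 63040 bases. The nearest microRNA of the count tables, dps-mir-288, lies 3270 bases away, from 25560408 to 25560503, and was chosen for its position. It had 0 reads in all 4 libraries. In the deepest of them, a count of 0 allows up to 0.00447% of the reads (3 reads of the total, counting error only), so that no level can be given for the closest neighbor of dps-mir-133.

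There were 2 male and 2 female libraries, from adults aged 7 days of a single stock kept at 18 °C under a daily light period of 12 h. The study describes the females as virgin. Each of the 2 sequencing runs held 1 male and 1 female library, and no genotype or treatment separated the groups. The microRNA reads numbered 5697 (male) and 7111 (female) in run 1 and 67076 (male) and 42754 (female) in run 2, so that the libraries of run 2 give the more precise values. Nothing in the labels says whether the libraries of a sex came from separate collections of flies, and p-values therefore measure only the spread between these libraries.

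The reads of dps-mir-133 were few. In males 6 reads were counted in run 1 and 181 in run 2, and in females 3 and 50. As a share of all microRNA reads, this was 0.105% in the male library of run 1 (95% exact Clopper-Pearson interval from 0.0387% to 0.229%) and 0.270% in that of run 2 (from 0.232% to 0.312%). The female libraries had 0.0422% in run 1 (from 0.00870% to 0.123%) and 0.117% in run 2 (from 0.0868% to 0.154%). In increasing order, the shares were those of the female library of run 1, the male of run 1, the female of run 2 and the male of run 2. The intervals of the first 3 libraries overlapped, and only the male library of run 2 lay above all the others without overlap. The groups overlapped, because the female share in run 2 was higher than the male share in run 1, while within each run the male share was the higher. These intervals cover counting error only, since reads amplified without molecular identifiers are not independent molecules. In flies sampled in bulk, fewer muscle cells and less dps-mir-133 per cell cannot be told apart.

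**Figure D1:**
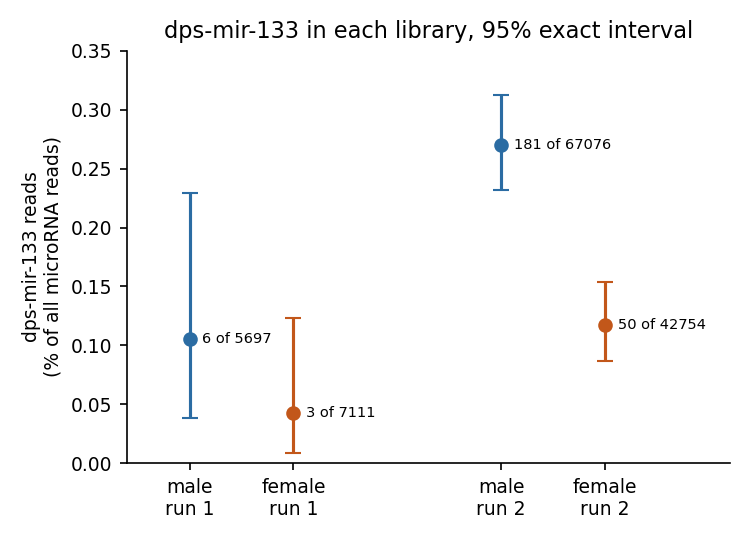
Share of dps-mir-133 in all microRNA reads, in percent, for each library, with its 95% exact interval and its reads out of the total. In both runs the male point is above the female point, and the intervals are wide in run 1, where dps-mir-133 had 6 and 3 reads.

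The comparison between the sexes asked whether dps-mir-133 was sex-biased once the run was taken into account. Levels were also expressed in CPM, counts scaled to library size with TMM factors. These factors are meant to correct for differences in composition between libraries. They were 0.88 for the male library of run 1 and 1.28 for the female library of run 2. A factor above 1 lowers the CPM. In males dps-mir-133 had 1194 CPM in run 1 and 2617 in run 2, and in females 493 and 911. On this scale every male value was above every female value. By share of reads, the female library of run 2 was above the male library of run 1. That order also held over each set of reads used below, for example over dps-mir-8 (4.60 against 3.48 per 1000). The male mean was 1906 ± 1006 CPM (SD, n = 2) and the female mean was 702 ± 296 CPM (SD, n = 2). The values of each sex came from different runs, so each SD includes the difference between runs. In edgeR's quasi-likelihood test with run and sex in the model, dps-mir-133 was 2.76-fold higher in males, which is 1.46 on the log2 scale (standard error 0.33), with an adjusted p of 0.0699 over the 84 microRNAs tested. It passed an FDR under 0.1 and a difference of at least 25%, the thresholds that the study applied to DESeq2 with local fit. In edgeR these thresholds were passed by 13.1% of the microRNAs tested, by 5.95% as higher in males and by 7.14% as higher in females. By fold change dps-mir-133 was at position 13 of the 84 from the most male-biased, and by p-value at position 10.

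This call depended on the test and on the scaling. DESeq2 with local fit, run and sex, the method of the study, gave a log2 fold change of 1.07 (adjusted p = 0.265) and limma-voom gave 1.33 (adjusted p = 0.157), and neither called dps-mir-133, while they called 10.7% and 2.38% of the microRNAs as higher in males. In edgeR with no replicate block, which leaves the run out, it reached 1.41 with a standard error of 0.72 (adjusted p = 0.491). With total counts only in place of TMM it was 1.23 and passed (adjusted p = 0.0497). The TMM factors put the median log2 fold change of all 84 microRNAs at 0.46, that is above 0, and DESeq2's size factors put it at 0.09. Relative to the median, dps-mir-133 was higher in males by 1.00 with TMM. Over the 13 other settings that used all 4 libraries, this relative value ran from 0.86 to 1.01, and the log2 fold change itself from 0.97 to 1.46. A change of scaling alone shifts all microRNAs nearly alike, so the relative value can move little in such settings. With each library left out in turn and no run in the model, the log2 fold change was 1.42 without the male library of run 1 and 0.66 without that of run 2. It was 0.53 without the female library of run 1 and 2.00 without that of run 2. With a library left out, the sexes are spread unequally over the runs. The difference between the runs is then not separated from that between the sexes. None of these 4 fits called dps-mir-133 (adjusted p from 0.819 to 0.995), and in each of them the lone library of a sex is assumed to vary like the pair of the other sex.

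**Figure D2:**
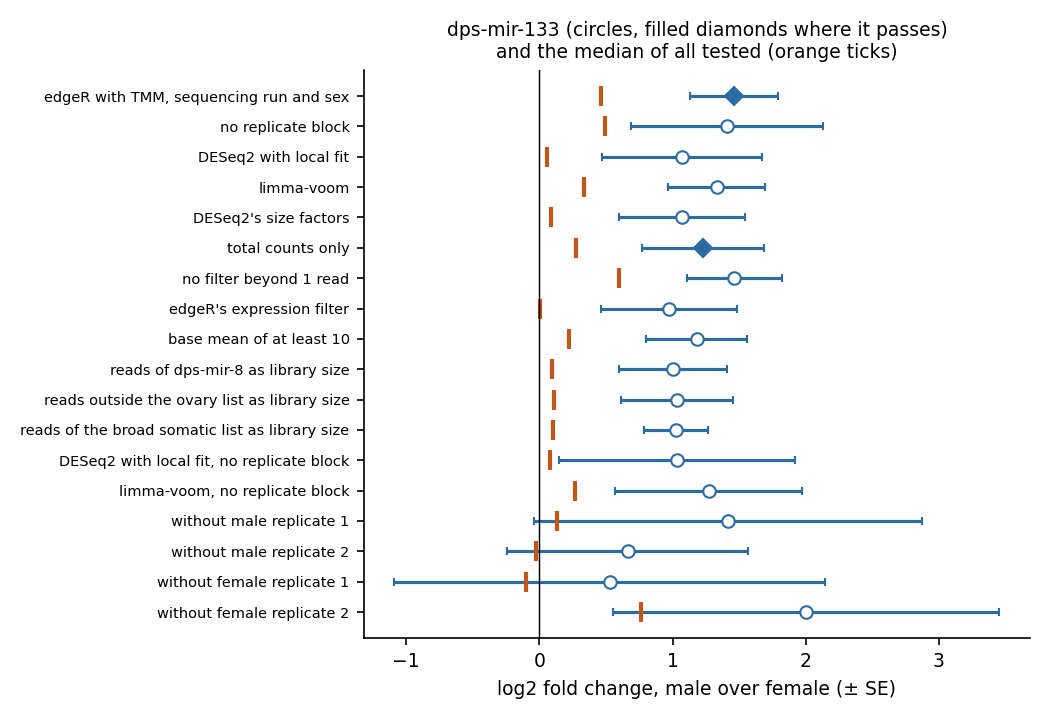
Log2 fold change of dps-mir-133, male over female, with its standard error, in the fit with run and sex and in each other setting. Standard errors are approximated from the F statistic in edgeR, and come from the method's own fit in DESeq2 and limma-voom. Filled diamonds pass the thresholds (TMM with run and sex, and total counts only), open circles do not, and orange ticks give the median of all microRNAs tested in that setting, so that the distance from tick to point is the value relative to the median.

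**Figure D3:**
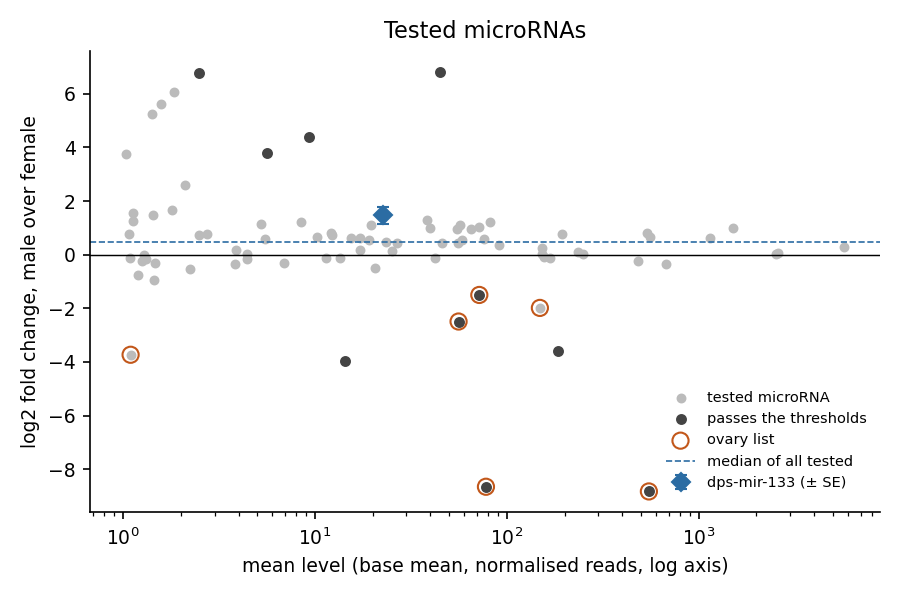
Log2 fold change, male over female, against the mean level (base mean, log axis) of the 84 tested microRNAs. The diamond is dps-mir-133 at 1.46 with its standard error of 0.33, the dashed line is the median of 0.46, dark points pass the thresholds and orange circles are the ovary list.

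Within the runs, the male to female ratio of dps-mir-133 was similar and its precision was not. In run 1 the male library had 1.05 reads of dps-mir-133 per 1000 microRNA reads and the female library 0.422, an odds ratio of 2.50 (95% exact interval from 0.533 to 15.4, Fisher's exact test, two-sided, adjusted p = 0.199 over the 2 runs). The difference was thus not detectable at the depth of run 1. In run 2 the values were 2.70 and 1.17 per 1000, an odds ratio of 2.31 (from 1.68 to 3.23, Fisher's exact test, two-sided, adjusted p = 6.29e-08). These tests compare the reads of 1 library with those of another, and not the sexes. Among the 84 microRNAs, the log2 ratio of male to female CPM (prior count of 2) was 1.18 for dps-mir-133 in run 1, against a median of 0.07, and 1.46 in run 2, against a median of 0.55. In both runs it was above the upper quartile, which was 0.97 in run 1 and 0.95 in run 2.

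The makeup of the female libraries moved with this comparison. The ovary list (dps-mir-318, dps-mir-994, dps-mir-989, dps-mir-9c, dps-mir-306, dps-mir-79 and dps-mir-9b) took 0.649% and 0.432% of the reads in males and 6.27% and 11.4% in females. All 7 had at least 1 read, and of the 6 tested 4 passed as higher in females, a direction in which 7.14% of all microRNAs tested passed, and 0 as higher in males. These reads enlarge the total against which dps-mir-133 is set in females. For this reason the ratio was also taken over reads that leave the ovary list, dps-mir-92a and dps-mir-92b out. Together these took 6.99% and 14.9% of the female reads. They include every microRNA that passed as higher in females in these same data, while those that passed as higher in males stayed in. A lower ratio over the remaining reads therefore follows in part from this choice. The odds ratio over the remaining reads was 2.34 in run 1 (from 0.50 to 14.5) and 1.98 in run 2 (from 1.44 to 2.76, Fisher's exact test, adjusted p = 1.78e-05). Over the reads of dps-mir-8, the most abundant microRNA, it was 2.51 in run 1 (from 0.536 to 15.6) and 1.88 in run 2 (from 1.36 to 2.63, Fisher's exact test, adjusted p = 9.59e-05). Over the broad somatic list (dps-mir-8, dps-mir-14, dps-mir-276a, dps-mir-276b, dps-mir-277 and dps-bantam) it was 2.38 and 1.95. With every denominator the male library of the run had the higher ratio, and the interval of run 1 held 1. When these reads were used as library sizes in edgeR with run and sex, the log2 fold change of dps-mir-133 was 1.03 without the ovary list (adjusted p = 0.144), 1.01 with dps-mir-8 (adjusted p = 0.182) and 1.02 with the somatic list (adjusted p = 0.231), and it was not called.

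**Figure D4:**
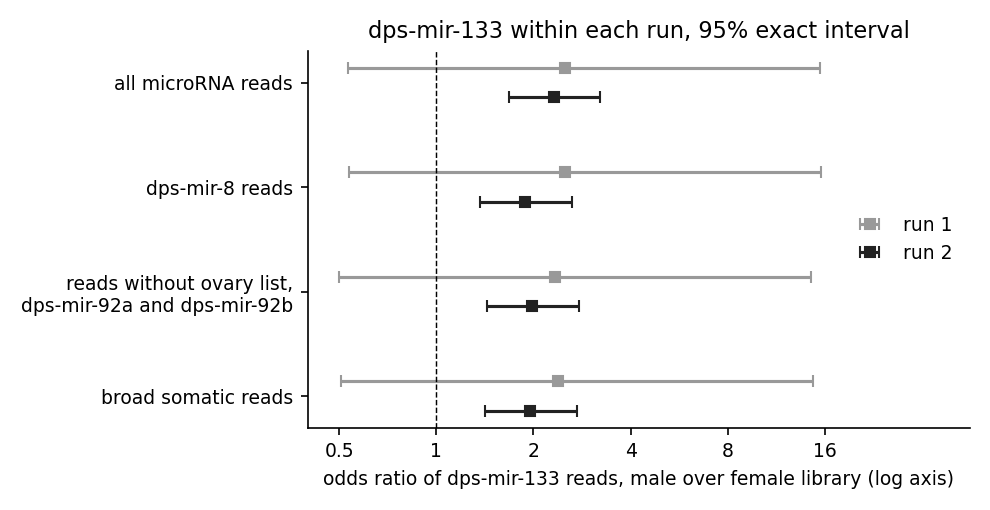
Odds ratio of dps-mir-133 reads, male over female library (log axis), with 95% exact intervals, for each run and each set of reads used for comparison. All points lie between 1.88 and 2.51, and the intervals of run 1 cross 1 while those of run 2 do not.

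The level of dps-mir-133 was also set beside the sequencing run. Its share of the reads was 2.56-fold higher in run 2 than in run 1 in males and 2.77-fold higher in females. Over the reads of dps-mir-8 these ratios were 2.48 and 3.32. In the edgeR fit the run term for dps-mir-133 came to 1.03 on the log2 scale, with a standard error of 0.37 (adjusted p = 0.181), beside a median of 0.15 over the microRNAs tested. The runs also differed in depth, and the part of depth in this difference was not tested.

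The other microRNAs with known roles in muscle or in the neuromuscular system of *D. melanogaster* were compared in the same fit. Of the 5 in this list, 4 were tested, with 0 passing as higher in males, beside 5.95% of all microRNAs tested, and 1 as higher in females, beside 7.14%. With 4 tested, nothing was read from these counts. Their median log2 fold change was 0.63, beside 0.46 over all the microRNAs tested. The microRNA that passed was dps-mir-92b, whose *D. melanogaster* ortholog acts on the muscle transcription factor Mef2. It had 8 reads in run 1 and 84 in run 2 for males, against 44 and 1440 for females, and a log2 fold change of -3.59 with a standard error of 0.79 (adjusted p = 0.0699), opposite in sign to that of dps-mir-133. It was higher in the same libraries as the ovary list, and was left out with that list in the denominators above. The tissue source of its reads was not tested. It has a paralog, dps-mir-92a, with which reads could have been shared. The temporal microRNA dps-let-7, involved in the remodeling of abdominal muscle and its nerves at metamorphosis, had 19 reads in run 1 and 287 in run 2 for males, against 12 and 118 for females, and its log2 fold change was 0.94 with a standard error of 0.38 (adjusted p = 0.215). Its cluster partner dps-mir-125 had 0.66 (adjusted p = 0.215), while dps-mir-100 had 2 libraries with 1 read each and was not tested. The value of dps-mir-9a, which acts on the development of flight muscle and of sense organs, was 0.60 (adjusted p = 0.513). Differences between dps-mir-133 and these microRNAs were not tested.

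Markers of other tissues were measured in the same way. Of the 14 testis microRNAs listed, 2 are in the tables used here, dps-mir-959 and dps-mir-964, and together they had 1 read in run 1 and 10 in run 2 for males, against 0 for females in both. The 5 nervous system and sense organ microRNAs found (dps-mir-124, dps-mir-7, dps-mir-263a, dps-mir-263b and dps-mir-184) took 3.18% and 2.70% of the reads in males and 3.95% and 4.23% in females. In the test, 0 of the 5 found passed in either direction, beside 13.1% of all microRNAs tested, and their median log2 fold change was -0.011. The list held 6 names, and dps-mir-210a was not among the 5 counted. For males, dps-mir-210a had 12 reads in run 1 and 614 in run 2, and for females 9 and 209. Its log2 fold change in the same fit was 1.03 (adjusted p = 0.238), so the median would be higher with it. The somatic list had 5 microRNAs tested, with 0 passing, beside 13.1% of all microRNAs tested, and a median of 0.28. With 5 tested in each list, nothing was read from these counts. The part of the tissue makeup in the value of dps-mir-133 was not tested beyond the denominators given above.

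By mean level (base mean, reads after scaling with DESeq2's size factors) dps-mir-133 was at position 40 of the 231, with 22.7. A read covers a whole mature product, so levels were not divided by length, and the preference of adapter ligation for some sequences was not corrected. By reads it ranked 33 in run 1 and 30 in run 2 among the microRNAs of the male library, against 44 and 43 for females. Tied microRNAs were given the best rank they share. In run 1 dps-mir-133 was tied in both libraries, for example with dps-mir-981 (6 reads in the male and 3 in the female library). Just above it were dps-mir-278 (23.3), a microRNA of energy metabolism in *D. melanogaster*, dps-mir-927 (25.3) and dps_2613 (26.8), and just below were dps-mir-283 (20.6), dps-mir-986 (19.7) and dps-mir-285 (19.2). The log2 fold changes of these 6 neighbors ran from -0.49 for dps-mir-283 to 1.12 for dps-mir-986. Of the 6, 0 passed the thresholds in the edgeR test (adjusted p from 0.164 to 0.957), beside 13.1% of all microRNAs tested. With 6 neighbors, nothing was read from this count.

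The microRNAs with the profile most like that of dps-mir-133 were found by the Euclidean distance between log2 CPM profiles, each centred on its own mean, over the 4 libraries and among the other 51 microRNAs whose base mean reached 10. They were dps-mir-375 (distance 0.53), dps-mir-986 (0.55), dps-mir-281-2 (0.55), dps-mir-315 (0.59) and dps-mir-10 (0.75), the last a microRNA of the Hox cluster. The reads of dps-mir-375 in males were 8 in run 1 and 315 in run 2, against 7 and 80 in females, and its log2 fold change was 1.28 (adjusted p = 0.167). For dps-mir-986 they were 6 and 133 for males, against 2 and 55 for females, with a log2 fold change of 1.12 (adjusted p = 0.164). Like dps-mir-133, all 5 had their highest CPM in the male library of run 2 and their lowest in the female library of run 1. They were chosen for nearness to dps-mir-133 over these same values, which favors such a shared order. In the test between the sexes 0 of the 5 passed, beside 13.1% of all microRNAs tested, and nothing was read from this count. The points share the same 4 libraries and their scaling, and the reads of dps-mir-281-2 could have been shared with its copy dps-mir-281-1, so this likeness is a description.

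**Figure D5:**
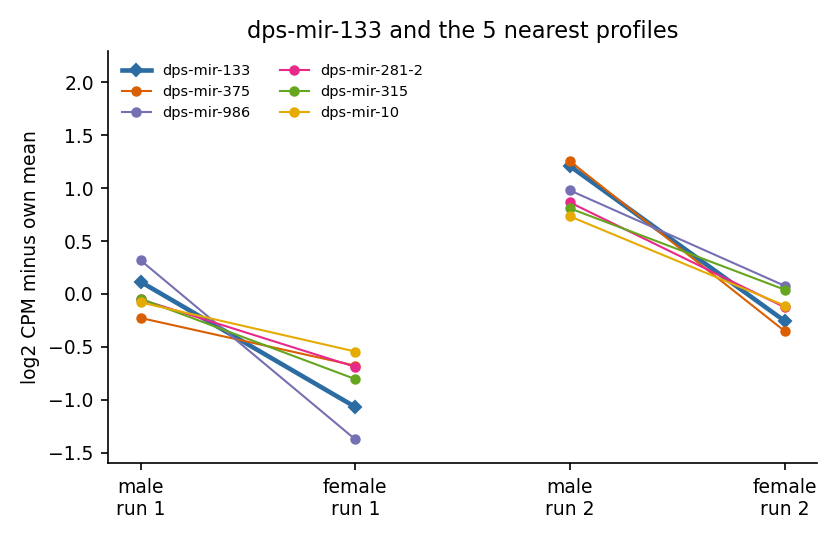
Log2 CPM minus its own mean over the 4 libraries, for dps-mir-133 (thick line, diamonds) and the 5 microRNAs with the nearest profiles. Lines join the male and female library of a run, and in each run the male point of all 6 microRNAs is above the female point. The 5 were chosen for their nearness to dps-mir-133 in these same values.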

How the data were processed

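Before deposit, the authors removed adapters (Cutadapt), aligned reads to the genome (HISAT2) and summed them per annotated precursor (featureCounts), leaving out precursors with identical copies in the genome. The deposited values are raw read counts per microRNA, 1 table per library, and were not normalized. Totals, and so precision, differed between runs. The replicate number of the labels was taken as the run, following the statement in the study's text that each run paired 1 male with 1 female library. Across the 84 tested microRNAs, the changes from run 1 to run 2 in males and females had a Pearson r of 0.567 (across microRNAs, which are not replicates).

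Counts were tested with edgeR 4.0.16 in R 4.3.3 (TMM, glmQLFit, glmQLFTest, run + sex, Benjamini-Hochberg adjustment) on microRNAs whose DESeq2 base mean reached 1. DESeq2 1.42.0 and limma 3.58.1 were alternatives. Standard errors of the edgeR fits were approximated from the F statistic, as the size of the log2 fold change over the root of F. Those of DESeq2 and limma-voom came from each method's own fit. The edgeR and limma-voom tests were checked on simulated data, with larger changes than that of dps-mir-133 and no run effect. DESeq2 and Fisher's exact test were not part of this check. Position is from the annotation of the study, matched to RefSeq gene spans. The members, lists and tests were chosen with earlier results of these data known. Named microRNAs were dps-mir-133, the tissue lists, the 3 next above and below it in mean level, and the 5 nearest profiles. Sequences of dps-mir-133 were not used here.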

Additional observations from a re-analysis of the deposited data

How the results depend on the processing

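The higher level of dps-mir-133 in males kept its direction in all 17 alternatives, and passed the thresholds in 1 of them, total counts only. The log2 fold change with run and sex was 1.46. It did not pass at 1.41 with no replicate block, 1.07 with DESeq2, 1.33 with limma-voom, 1.07 with DESeq2's size factors, 1.46 without a filter beyond 1 read (adjusted p = 0.105 over 131 microRNAs), 0.97 with edgeR's expression filter, 1.18 where the base mean had to reach 10, and 1.01, 1.03 and 1.02 with library sizes from dps-mir-8, from reads outside the ovary list and from the somatic list. In fits chosen after seeing the data, with no replicate block, it was 1.03 with DESeq2 and 1.27 with limma-voom. Leaving out 1 library, with the run term dropped, it ran from 0.53 to 2.00, values in which run and sex are not separated. The number of sex-biased microRNAs among the 84 tested was 11 with run and sex and 9 with no replicate block. It was 17 with DESeq2, 6 with limma-voom, 13 with DESeq2's size factors and 16 with total counts only. Each of the fits chosen after seeing the data gave 8. With other filters the number was 9 of 131 (no filter beyond 1 read) and 10 of 55 (edgeR's expression filter). Where the base mean had to reach 10 it was 5 of 52. The cause of these changes was not tested. The results planned for dps-mir-1 and for its ratio to dps-mir-133 were not run. Depth limits run 1, where 3 reads amounted to 597 CPM in the male and 493 CPM in the female library, the level of dps-mir-133 in the latter.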
